A study of Homo sapiens with 36 samples.

Results

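TET1 peaks crowded into a pair of stretches of the genome in HEK293T cells given an siRNA named for MBD2 or MBD3. These were a 2 Mb window on chromosome 11 that holds CD44, and a 1 Mb window on chromosome 8 at NRG1. How much of NRG1 lies inside its window was not analysed here. The regions described here are all peaks of the 6 deposited lists whose summit lies at 34 to 36 Mb of chromosome 11 or at 32 to 33 Mb of chromosome 8 (hg19). There were 287 such peaks of 62066 in all, 224 on chromosome 11 and 63 on chromosome 8. The windows were chosen by how densely siMBD2 and siMBD3 peaks filled them, so the number and crowding of those peaks are a description and carry no test.

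TET1 binding had been mapped by chromatin immunoprecipitation and sequencing in HEK293T, a human embryonic kidney line that carries the SV40 large T antigen. Cells had been transfected with siMBD2, siMBD3, siCHD5, siCHD3, siCHD4 or siNC, the last taken as the control because it alone is not named for a gene. Each siRNA had 3 pull-down and 3 input libraries, and 1 peak list whose name joins replicates 1 to 3, so no spread between replicates could be computed and no difference below could be set against replicate error. Read totals, and how far each siRNA lowered its target, were not analysed here.

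TET1 is a dioxygenase that oxidises 5-methylcytosine, the first step of active DNA demethylation, and its CXXC domain binds CpG-rich DNA. MBD2 and MBD3 are alternative subunits of the nucleosome remodelling and deacetylase complex NuRD, and CHD3, CHD4 and CHD5 are its ATPases. MBD2 binds methylated CpGs, whereas mammalian MBD3 has little preference for them. CD44 encodes a cell-surface receptor for hyaluronan, and NRG1 encodes neuregulin, a ligand of ERBB receptor kinases.

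The chromosome 11 window also holds, on hg19, CAT (catalase, which breaks down hydrogen peroxide), EHF (an epithelial transcription factor of the ETS family), PDHX (a component of the pyruvate dehydrogenase complex), SLC1A2 (a glutamate transporter) and FJX1. In the RefSeq gene table the protein-coding genes from CAT to FJX1 run in the order CAT, ELF5, EHF, APIP, PDHX, CD44, SLC1A2, PAMR1 and FJX1. That table is of GRCh38.p14, another assembly than the peaks, so it gave gene names and order only. Which of the peaks lie in a promoter, exon or intron of these genes was not analysed here.

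Because TET1 binds CpG-rich DNA, the CG dinucleotides of the promoters in the CD44 stretch were counted. RefSeq promoters (GRCh38.p14, 250 bases before to 50 after the start, 300 in all) were on hand for 8 of these 9 genes. CG reads the same on both strands and copies cannot overlap. CD44 had 18 CGs, and 44.5% of all 35116 promoters in the table had at least as many. EHF had 8 in the first of its listed starts and 3 in the second, numbers that 60.7% and 81.8% of promoters reached. PDHX had 33 and 24 in its 2 listed starts, FJX1 had 31, APIP 28, CAT 20, and ELF5 and PAMR1 had 2 each, against a median of 14 over the table. The promoters of this stretch thus run from CpG-poor to CpG-rich. The CD44 and EHF promoters are printed below to show the difference, with each CG in capitals, both on the plus strand, CD44 at chr11:35138921-35139220 and EHF at chr11:34624007-34624306 of GRCh38.p14; these positions are not comparable with the hg19 positions of the peaks, and whether a peak covers either promoter was not analysed here.
CD44: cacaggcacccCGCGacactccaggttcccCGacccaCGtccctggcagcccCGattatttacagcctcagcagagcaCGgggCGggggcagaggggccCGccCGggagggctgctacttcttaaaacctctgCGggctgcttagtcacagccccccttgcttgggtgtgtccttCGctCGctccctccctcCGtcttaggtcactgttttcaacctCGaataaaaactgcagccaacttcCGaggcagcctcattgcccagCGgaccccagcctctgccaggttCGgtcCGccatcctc
EHF: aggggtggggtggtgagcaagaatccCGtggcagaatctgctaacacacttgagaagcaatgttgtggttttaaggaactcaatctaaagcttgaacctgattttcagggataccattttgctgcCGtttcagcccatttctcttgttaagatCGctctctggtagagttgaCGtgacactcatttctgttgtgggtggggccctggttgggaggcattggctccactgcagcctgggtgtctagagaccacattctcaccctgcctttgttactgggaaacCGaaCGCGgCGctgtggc

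A deposited peak with several summits is written as 1 line per summit, so peaks were collapsed to distinct intervals. The chromosome 11 window held 63 distinct intervals of siMBD2 and 47 of siMBD3, against 26 of siCHD5, 0 of siCHD3, 0 of siCHD4 and 27 of siNC. The chromosome 8 window held 25 of siMBD2 and 16 of siMBD3, against 6 of siCHD5, 0 of siCHD3, 0 of siCHD4 and 4 of siNC. siMBD2 and siMBD3 therefore had more intervals than siNC here although their lists were far shorter in all, with 284 and 188 intervals against 28072. The windows took up 31% of the siMBD2 list (Clopper-Pearson 95% interval 25.7 to 36.7) and 33.5% of the siMBD3 list (26.8 to 40.7). They took up 0.0994% of siCHD5 (0.0680 to 0.140) and 0.11% of siNC (0.0750 to 0.157). The 0 intervals of siCHD3 and siCHD4 came from lists of 104 and 77 intervals, which allow shares of up to 3.48% and 4.68%. All such 95% intervals cover counting error only. They take peaks as independent, although many siMBD2 and siMBD3 peaks lay close together. The windows were chosen for dense siMBD2 and siMBD3 peaks, so the shares of these lists are not read as a test.

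Beside the windows the MBD lists held few or no intervals, while siCHD5 and siNC held intervals there too. In the 2 Mb before the chromosome 11 window there were 0 intervals of siMBD2 and 0 of siMBD3, against 36 of siCHD5 and 26 of siNC. In the 2 Mb after it there were 3 and 1, against 20 of siCHD5 and 20 of siNC. In the 1 Mb before the chromosome 8 window there were 0 of siMBD2 and 0 of siMBD3, against 5 of siCHD5 and 3 of siNC, and in the 1 Mb after it 1 and 1, against 10 and 11. siCHD5 and siNC thus ran on across the bounds, with 26 and 27 intervals in the chromosome 11 window and 20 to 36 in its flanks.

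**Figure D1:**
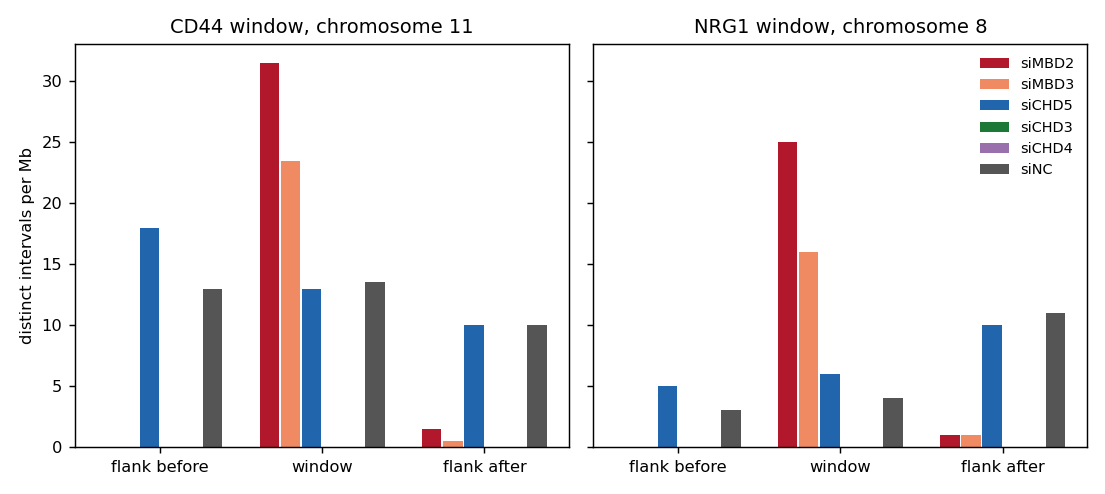
Distinct TET1 peak intervals per Mb (vertical axis) in each window and in flanks of the same length, for the 6 lists. siMBD2 reached 31.5 and siMBD3 23.5 intervals per Mb in the CD44 window against 13.5 of siNC, and siCHD3 and siCHD4 had no bar because they had 0 intervals.

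Peaks near the bounds show that the bounds did not divide a crowd. On chromosome 11 the first siMBD2 summit inside lay at 34.127 Mb (5.81-fold) with no siMBD2 peak before it on the chromosome, and the last inside lay at 35.949 Mb (5.53-fold), with the next outside at 36.171 Mb (5.31-fold). For siMBD3 the first inside lay at 34.127 Mb (6.09-fold), the last inside at 35.824 Mb (6.18-fold) and the next outside at 36.579 Mb (4.59-fold). On chromosome 8 no siMBD2 or siMBD3 peak preceded the window, and the first after it lay at 33.371 Mb in both lists, with folds of 5.13 and 4.58. In siNC the nearest summits outside the chromosome 11 window lay at 33.993 Mb (10.1-fold) and 36.064 Mb (6.86-fold), and in siCHD5 at 33.993 Mb (8.72-fold) and 36.078 Mb (7.89-fold).

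Exact edges were set by linking intervals of 1 list whose highest summits lay no more than 100 kb apart, and taking the run with the most intervals in the window. On chromosome 11 the siMBD2 run began at 34858977 and ended at 35180830, a length of 322 kb with 21 intervals and 40 summits. The siMBD3 run began at 34936781 and ended at 35181080, 244 kb with 17 intervals and 34 summits. The right edges thus lay 250 bp apart, while the left edges lay 77.8 kb apart because siMBD2 had a lone interval at 34858977 to 34859213 (7.08-fold) that siMBD3 lacked. Beyond these edges the nearest interval of the same list was 184 kb before and 117 kb after in siMBD2, and 231 kb before and 118 kb after in siMBD3. At 50 kb linking the siMBD2 run shrank to 34998234 to 35180830, and at 200 kb it grew to 34126726 to 35684884 with 62 of the 63 intervals. The siMBD3 run spanned 34997780 to 35181080 at 50 kb and 34936781 to 35298616 at 200 kb. How far apart the left edges lay thus depended on the link distance.

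The rest of the chromosome 11 window broke into further runs, some of whose bounds lay within 1 kb of each other in the MBD lists and others far apart. Each list had 7 runs in the window, 4 of them with 7 or more intervals, and those 4 held 57 of 63 siMBD2 intervals and 43 of 47 siMBD3 intervals. One run spanned 34255847 to 34460911 in siMBD2 (14 intervals) and 34255911 to 34460950 in siMBD3 (7 intervals), with edges 64 and 39 bp apart. Another spanned 34621546 to 34676368 in siMBD2 (8 intervals) and 34621297 to 34706827 in siMBD3 (8 intervals), with left edges 249 bp apart and right edges 30.5 kb apart. The run that holds the strongest peak spanned 35551536 to 35684884 in siMBD2 (14 intervals) and 35588591 to 35684208 in siMBD3 (11 intervals), with left edges 37.1 kb apart and right edges 676 bp apart. A short run spanned 35297416 to 35374166 in siMBD2 (3 intervals) and 35297573 to 35298616 in siMBD3 (2 intervals), with left edges 157 bp apart and right edges 75.5 kb apart. The last member of the window was a lone interval at 35949154 to 35949360 in siMBD2 and at 35824143 to 35824341 in siMBD3, and neither had a counterpart in the other list. The widest empty stretch lay between 35684884 and 35949154 in siMBD2 and between 35298616 and 35588591 in siMBD3.

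On chromosome 8 nearly all of the crowding fell in a single short run. It spanned 32084032 to 32181732 in siMBD2, 97.7 kb with 23 of the window's 25 intervals, and 32083820 to 32168626 in siMBD3, 84.8 kb with 13 of 16. The left edges lay 212 bp apart and the right edges 13.1 kb apart. This run held 23.5 siMBD2 intervals and 15.3 siMBD3 intervals per 100 kb, against 6.52 and 6.96 in the chromosome 11 domain. It contained 0 intervals of siCHD5 and 0 of siNC, but the whole 1 Mb window held only 6 and 4, so these counts make no contrast. The nearest siNC interval, at 32081090 to 32081314 (6.24-fold), ended shortly before the left edges. The remaining members were scattered: siMBD2 had lone intervals at 32404862 to 32405423 and 32785620 to 32785817, and siMBD3 had 3, at 32405182 to 32405405, 32785574 to 32785785 and 32961555 to 32961944. Linking at 50 or 200 kb gave the same edges on this chromosome.

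Ranked by number of intervals over chromosomes 1 to 22, X and Y, the chromosome 8 run was the first of siMBD2 and the second of siMBD3, and the chromosome 11 domain was the second of siMBD2 and the first of siMBD3. Outside the windows the largest runs had 8 intervals in siMBD2, on chromosome 2 at 92290929 to 92325262 and on chromosome Y at 58822092 to 58912777, and 8 in siMBD3, on chromosome 2 at 92290607 to 92324614. The chromosome 2 run had a highest fold of 1.69 in siMBD2 and 1.68 in siMBD3, over median control backgrounds of 359 and 295 reads. The chromosome Y run of siMBD2 reached 21.6-fold over a median background of 1.83, and a siMBD3 run of 4 intervals there reached 10.4-fold. A siMBD2 run of 7 intervals on chromosome 9, at 97643070 to 97716177, reached 6.37-fold over a median background of 2.04. The chromosome 9 run shows that runs at low background occurred outside the windows too. Whether the reads placed on chromosome Y belong there was not tested. In siCHD5 and siNC the runs with the most intervals in the chromosome 11 window had 8 and 10 and took rank 773 and rank 376 in their lists.

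**Figure D2:**
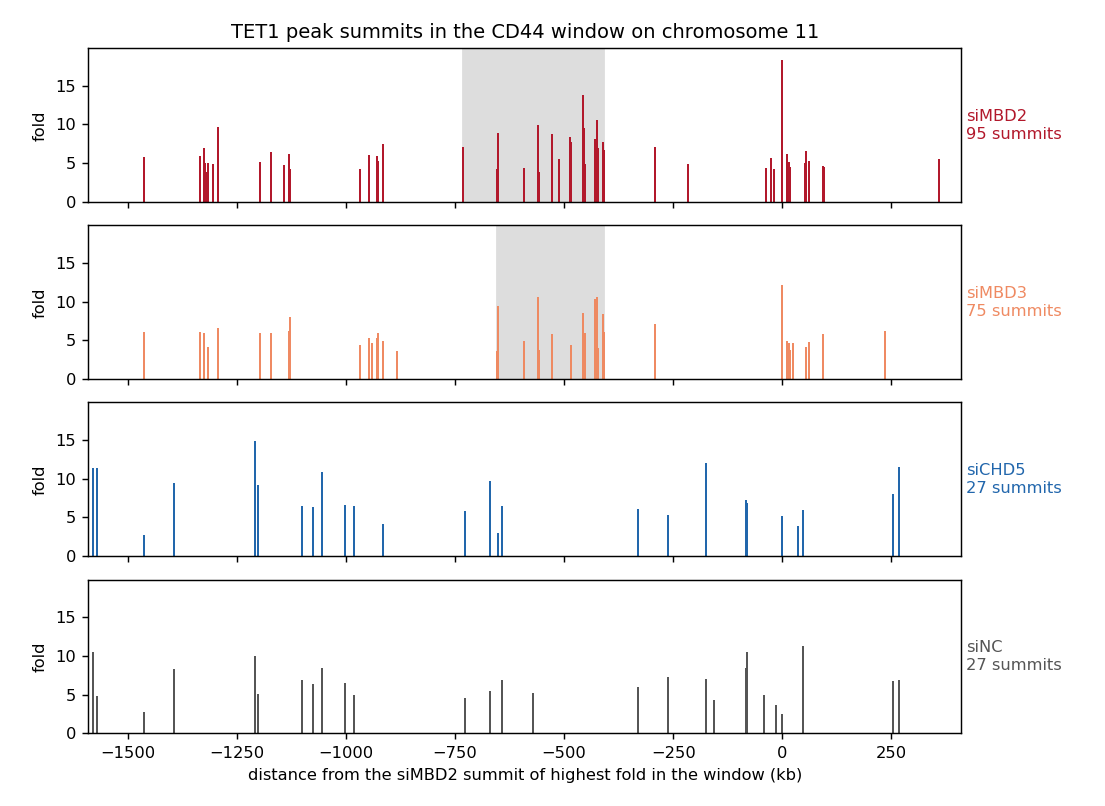
Fold enrichment (vertical axis) of each TET1 summit along the chromosome 11 window, as distance in kb from the siMBD2 summit of highest fold (horizontal axis), for siMBD2, siMBD3, siCHD5 and siNC. Grey bands mark the 322 kb siMBD2 domain and the 244 kb siMBD3 domain; 35 of the 63 siMBD2 intervals overlap siMBD3, and 1 overlaps siNC.

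**Figure D3:**
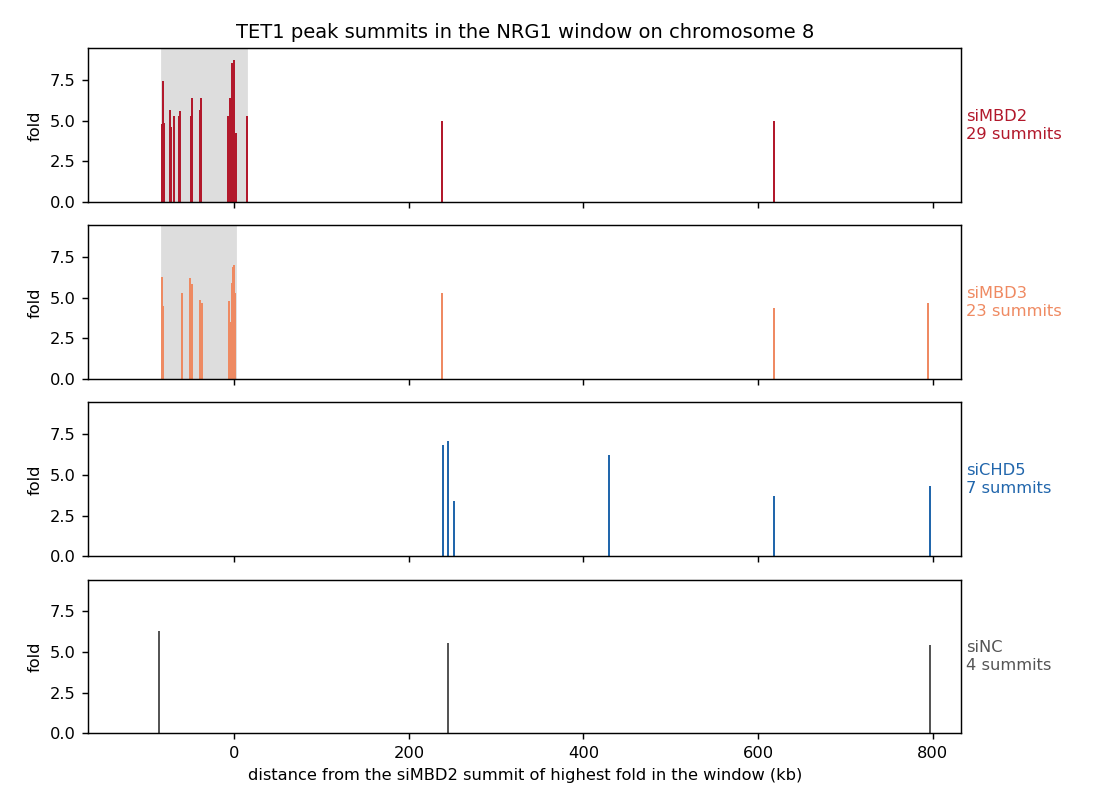
Fold enrichment of each summit along the chromosome 8 window, drawn as for the CD44 window, with grey bands over the 97.7 kb siMBD2 domain and the 84.8 kb siMBD3 domain. Neither siCHD5 nor siNC has a summit in the bands, and they have only 7 and 4 summits in the whole window.

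Spacing in the windows was short and uneven in the MBD lists. Neighbouring highest summits lay a median of 8.41 kb apart in siMBD2 and 11.2 kb in siMBD3 on chromosome 11, against 58.3 kb in siCHD5 and 50.2 kb in siNC. On chromosome 8 the medians were 1.53 kb in siMBD2 and 2.17 kb in siMBD3, against 178 kb in siCHD5 and 331 kb in siNC, the last over 3 distances only. Spacings under 2 kb made up 26 of 62 in siMBD2 and 13 of 46 in siMBD3 on chromosome 11, against 1 of 25 in siCHD5 and 1 of 26 in siNC. On chromosome 8 they made up 15 of 24 in siMBD2 and 5 of 15 in siMBD3, against 0 of 5 in siCHD5 and 1 of 3 in siNC. Many MBD intervals thus lay in small groups, with long empty stretches between the groups.

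Joining intervals separated by no more than 5 kb, a distance chosen after the data were seen, gave 35 groups of siMBD2 and 30 of siMBD3 on chromosome 11, against 25 of siCHD5 and 26 of siNC. More than 1 interval was held by 17 siMBD2 groups and 12 siMBD3 groups, against 1 of siCHD5 and 1 of siNC. The largest on chromosome 11 spanned 35160083 to 35168307 in siMBD2, with 6 intervals and 14 summits over 8.23 kb, and 35160191 to 35168769 in siMBD3, with 5 intervals and 9 summits over 8.58 kb. Next to it a group spanned 35132397 to 35137836 in siMBD2 (3 intervals, 7 summits) and 35132313 to 35137270 in siMBD3 (3 intervals, 6 summits). On chromosome 8 the largest spanned 32159758 to 32168732 in siMBD2, with 7 intervals over 8.98 kb, and 32161213 to 32168626 in siMBD3, with 6 intervals over 7.41 kb. A siMBD2 group of 6 intervals at 32093028 to 32105134 (highest fold 5.66) overlapped no siMBD3 interval, and the nearest siMBD3 interval after it lay at 32106987 to 32107266 (5.27-fold). Many groups had a counterpart in the other MBD list: 26 of 35 siMBD2 groups overlapped siMBD3 on chromosome 11 (74.3%), where 40.4% of groups over the whole siMBD2 list did, and 26 of 30 siMBD3 groups overlapped siMBD2 (86.7%), where 63.4% over the whole siMBD3 list did. On chromosome 8 the counts were 6 of 8 in either direction.

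Among distinct intervals, 49 of 88 siMBD2 members shared at least 1 bp with siMBD3 (55.7%, 44.7 to 66.3), where 41.5% of the whole siMBD2 list did. Seen from siMBD3, 51 of 63 members overlapped siMBD2 (81.0%, 69.1 to 89.8), where 64.9% of the whole list did. Both lists chose the windows, so these shares are not read as a test. The windows were alike in this: 35 of 63 siMBD2 intervals on chromosome 11 (55.6%) and 14 of 25 on chromosome 8 (56.0%) overlapped siMBD3. Outside the windows the shares were 35.2% of siMBD2 (69 of 196) and 56.8% of siMBD3 (71 of 125). Many of the outside overlaps lay where the control background was high, and with a background under 10 reads the outside shares were 16.8% (22 of 131) and 35% (21 of 60).

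siNC and siCHD5 peaks of the windows lay mostly elsewhere. In siMBD2 1 of 88 members (1.14%, 0.0288 to 6.17) and in siMBD3 1 of 63 (1.59%, 0.0402 to 8.53) overlapped siNC, where 20.4% and 20.2% of the whole lists did. Where the control background was under 10 reads, 17.6% of siMBD2 (23 of 131) and 11.7% of siMBD3 (7 of 60) outside the windows overlapped siNC. Seen from siNC, 1 of 31 members overlapped siMBD2, where 0.21% of the whole siNC list did, and 1 of 31 overlapped siMBD3, where 0.139% did. With siCHD5 the overlaps were 5 of 88 (5.68%, 1.87 to 12.8) and 4 of 63 (6.35%, 1.76 to 15.5), where 26.4% and 29.3% of the whole lists did. siCHD5 and siNC instead shared places with each other: 25 of 32 siCHD5 members overlapped siNC (78.1%, 60.0 to 90.7), where 74.4% of the whole siCHD5 list did, and 26 of 31 siNC members overlapped siCHD5 (83.9%, 66.3 to 94.5), where 85.3% of the whole siNC list did. These shares were near those of the whole lists. siNC intervals present inside the siMBD2 domain on chromosome 11 numbered 4, with folds of 4.61 to 6.90, and 0 of them were overlapped by siMBD2.

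Distances between the lists were also measured in kilobases. From a siMBD2 member the nearest siMBD3 summit lay a median of 0.502 kb away on chromosome 11 and 0.620 kb on chromosome 8. The nearest siNC summit lay a median of 43.1 kb from siMBD2 members and 29.8 kb from siMBD3 members on chromosome 11, and 36.9 kb and 47.6 kb on chromosome 8. siNC summits themselves lay a median of 50.2 kb apart on chromosome 11 and 331 kb on chromosome 8, so these medians show no avoidance. On chromosome 11, 2 of 63 siMBD2 members and 2 of 47 siMBD3 members had a siNC summit within 1 kb, where 24.6% and 24.5% of the whole lists did. Outside the windows with a background under 10 reads, 27 of 131 siMBD2 intervals (20.6%) and 11 of 60 siMBD3 intervals (18.3%) had one. Of the siCHD5 members on chromosome 11, 23 of 26 had one, where 75.2% of the whole siCHD5 list did.

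siMBD2, siMBD3, siCHD5 and siNC had overlapping intervals at a single place, which carried the strongest MBD peak. On chromosome 11 at 35588625 to 35590900 siMBD2 had an interval of 2276 bp with 3 summits, the highest at 18.3-fold, and siMBD3 had one at 35588591 to 35590555 (1965 bp, 4 summits, 12.2-fold). siCHD5 had an interval of 566 bp at 35589594 to 35590159 with a highest fold of 5.21, and siNC had one of 215 bp at 35589992 to 35590206 with a fold of 2.5 and a −log10 q of 1.44, where the lowest −log10 q of that list was 1.30. In siMBD2 this interval ranked second of the whole list by fold, and in siMBD3 it ranked first. The pull-down pileup at the top summit was 66 reads over a control background of 2.66 in siMBD2, and 60 over 4.01 in siMBD3.

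Other meeting points were with siCHD5 alone and weak in that list. At 34938168 to 34938540 siMBD2 had an 8.77-fold interval and at 34938192 to 34938691 siMBD3 had a 9.39-fold one, where siCHD5 reached 2.96-fold at 34938240 to 34938597. At 34674919 to 34676368 siMBD2 had a 7.45-fold interval and at 34675129 to 34675422 siMBD3 a 3.89-fold one, where siCHD5 reached 4.21-fold at 34675107 to 34675345. On chromosome 8 siMBD2 had a 4.96-fold interval at 32785620 to 32785817 and siMBD3 a 4.36-fold one at 32785574 to 32785785, where siCHD5 had a 3.68-fold interval. At 34126726 to 34127047 a siMBD2 interval of 5.81-fold met a siCHD5 interval of 2.72-fold, and a siNC interval of 2.77-fold at 34126411 to 34126685 ended before it. In each of these places the siCHD5 fold was under the 6.45 median of its own members.

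The strongest siNC and siCHD5 peaks of the windows did not overlap MBD peaks, as was so for nearly all siNC peaks of the genome. siCHD5 had 14.8-fold at 34380757 to 34381312, 12.0-fold at 35413767 to 35414116 and 11.5-fold at 35856932 to 35857372, and siNC had a peak at each, of 9.99, 7.03 and 6.89-fold. siNC had 11.3-fold at 35637747 to 35638040, 10.5-fold at 34009535 to 34009860 and 10.4-fold at 35509154 to 35509474, where siCHD5 had 5.92, 11.4 and 6.81-fold. On chromosome 8 siCHD5 had 7.05-fold at 32411605 to 32412557 and 6.83-fold at 32406499 to 32406828, and siNC had 6.24-fold at 32081090 to 32081314 and 5.55-fold at 32412186 to 32412442. siMBD2 and siMBD3 had a peak at none of these, where 0.21% and 0.139% of all siNC intervals overlapped siMBD2 and siMBD3.

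Next in fold after the shared site, siMBD2 had 13.8-fold at 35132397 to 35134477, 10.6-fold at 35164595 to 35166198, 9.91-fold at 35030318 to 35031717 and 9.62-fold at 34296549 to 34297651. siMBD3 had 10.6-fold at 35165511 to 35166008, 10.6-fold at 35030254 to 35031339, 10.3-fold at 35160191 to 35161950 and 9.39-fold at 34938192 to 34938691. Of the 20 intervals of highest fold in each whole list, 11 of siMBD2 and 13 of siMBD3 lay in the windows. The windows held 31% and 33.5% of all intervals of those lists. All members had a control background under 10 reads, but outside the windows only 131 of 196 siMBD2 and 60 of 125 siMBD3 intervals did. Shares of all intervals thus include many of high background, where folds were low. For siCHD5 and siNC the counts among the top 20 were 0 and 0, but the windows held only 0.0994% and 0.11% of their intervals. Those counts therefore make no contrast. On chromosome 8 folds were lower. siMBD2 reached 8.72-fold at 32165942 to 32167427, 8.49-fold at 32163662 to 32164794 and 7.43-fold at 32084853 to 32086005. siMBD3 reached 7.02-fold at 32166751 to 32167414, 6.85-fold at 32165218 to 32166522 and 6.24-fold at 32083820 to 32084670.

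Over all summits, siMBD2 members had a median fold of 5.66 on chromosome 11 (quartiles 4.75 and 7.15) and 5.31 on chromosome 8 (4.96 and 6.02). siMBD3 members had 5.34 (4.36 and 6.37) and 4.88 (4.36 and 5.58). siCHD5 members had 6.51 on chromosome 11 and 4.30 on chromosome 8, and siNC members had 6.51 and 5.49, so the order of the lists differed between the windows. Outside the windows the median fold was 4.18 in siMBD2 and 1.76 in siMBD3, against 6.91 in siCHD5 and 6.73 in siNC. The low value of siMBD3 came with summits of high control background, and with a background under 10 reads the outside medians were 4.74 in siMBD2 and 4.37 in siMBD3. Fold is the authors' value within each list, and folds of different lists are set side by side without a test.

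Intervals in the windows were wide in the MBD lists. Their median width was 467.5 bp in siMBD2 and 408 bp in siMBD3, against 330.0 bp in siCHD5 and 273 bp in siNC. Outside the windows it was 284 bp in siMBD2, 277 bp in siMBD3, 299 bp in siCHD5 and 298 bp in siNC. With a control background under 10 reads, the outside medians were 247 bp in siMBD2 and 244 bp in siMBD3, with no change in siCHD5 and siNC. Of the 18 siMBD2 intervals of 1 kb or more in the whole list, 14 lay in the windows, as did 10 of 14 in siMBD3. The windows held 31% and 33.5% of all intervals of those lists. In siCHD5 0 of 43 and in siNC 0 of 23 lay there, which is no contrast, because the windows held only 0.0994% and 0.11% of their intervals. Covered length in the windows came to 53394 bp in siMBD2, 38000 bp in siMBD3, 11947 bp in siCHD5 and 9155 bp in siNC. The widest were 35588625 to 35590900 (2276 bp), 35160083 to 35162353 (2271 bp) and 35132397 to 35134477 (2081 bp) in siMBD2, and 35588591 to 35590555 (1965 bp), 35160191 to 35161950 (1760 bp) and 35179345 to 35181080 (1736 bp) in siMBD3. On chromosome 8 the widest spanned 1486 bp in siMBD2, at 32165942 to 32167427, and 1406 bp in siMBD3, at 32126724 to 32128129.

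**Figure D4:**
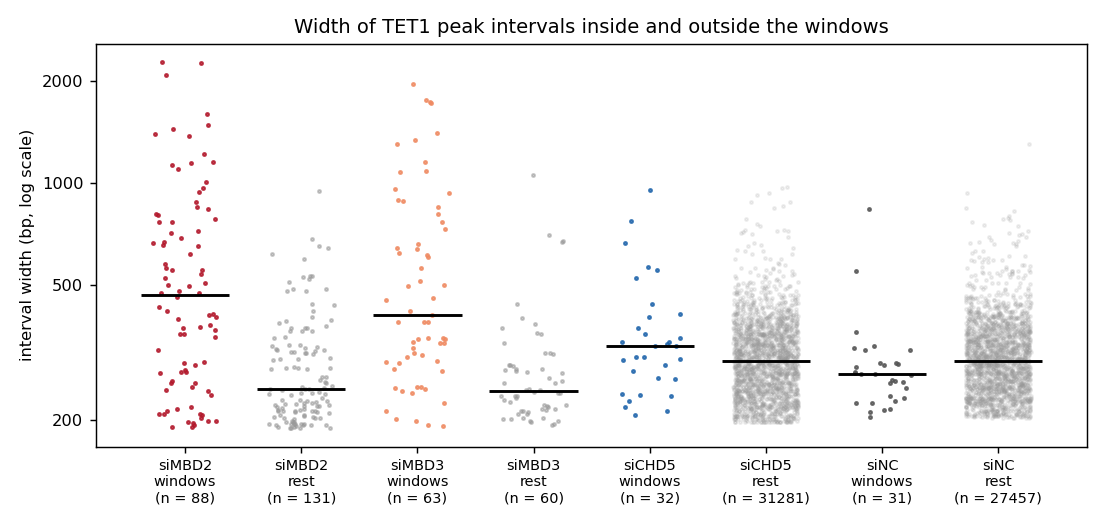
Width of each distinct interval (vertical axis, bp, log scale) in the windows and in the rest of the same list where the control background was under 10 reads; bars are medians, and the largest sets are drawn as a random sample of their points. siMBD2 and siMBD3 members reach 2276 and 1965 bp, while siNC members reach 838 bp.

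Many wide intervals held several summits. Intervals with more than 1 summit made up 22 of 88 siMBD2 members (25%) and 21 of 63 siMBD3 members (33.3%), against 2 of 32 siCHD5 members and 0 of 31 siNC members. Over the whole lists they made up only 1.58% of siCHD5 and 1.31% of siNC intervals. The low siCHD5 and siNC counts were thus not particular to the windows. Outside the windows, intervals with more than 1 summit were 24 of 196 in siMBD2 (12.2%) and 25 of 125 in siMBD3 (20.0%), and 5 of 131 and 4 of 60 where the control background was under 10 reads. The siMBD2 interval at 35132397 to 35134477 had 5 summits of 10.3, 13.8, 9.37, 9.02 and 9.56-fold in order along the chromosome, 420, 429, 414 and 439 bp apart. In siMBD3 the matching interval at 35132313 to 35134032 had 4 summits of 4.50, 6.52, 7.07 and 8.57-fold, 697, 390 and 264 bp apart. The siMBD2 interval at 35160083 to 35162353 had 5 summits of 7.22, 6.83, 7.79, 8.14 and 4.37-fold, and the siMBD3 interval at 35160191 to 35161950 had 4, of 8.41, 10.3, 6.54 and 4.90-fold. Over all members, neighbouring summits of 1 interval lay a median of 414 bp apart in siMBD2 (36 distances) and 388 bp in siMBD3 (35 distances), against 259.5 bp and 246 bp outside the windows. With a control background under 10 reads the outside medians were 336 bp in siMBD2 (6 distances) and 348.5 bp in siMBD3 (4 distances). How the summit caller's own settings bear on these distances was not tested.

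Reads piled up in the pull-down, and the control background under them, were solved from fold and −log10 p for all 287 members. On chromosome 11 the median pileup was 19 reads over a background of 2.27 in siMBD2 and 22 over 3.12 in siMBD3, against 39 over 3.67 in siCHD5 and 30.0 over 3.70 in siNC. On chromosome 8 it was 15 over 1.83 in siMBD2 and 16 over 2.49 in siMBD3, against 25 over 3.99 in siCHD5 and 26.5 over 4.26 in siNC. The background was at the lowest value of its list in 52 of 124 siMBD2 members (41.9%) and 23 of 98 siMBD3 members (23.5%), against 7 of 34 of siCHD5 and 3 of 31 of siNC. Over the whole lists this held for 30.2% of siMBD2, 15.4% of siMBD3, 21.6% of siCHD5 and 18.0% of siNC summits. Outside the windows with a background under 10 reads it held for 40.9% of siMBD2 and 26.6% of siMBD3 summits, near the members' shares. On chromosome 8 alone this held for 22 of 29 siMBD2 summits. The highest member background was 6.98 reads in siMBD2 and 9.35 in siMBD3, against 9.31 in siCHD5 and 6.34 in siNC. Many chromosome 8 summits rested on few reads and shared the same fold: 7 siMBD2 summits there had a pileup of 14 and a fold of 5.31. Pileups of different lists depend on depth, which is unknown for the pooled libraries.

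Where siMBD2 and siMBD3 intervals overlapped, they formed 56 pairs, 41 on chromosome 11 and 15 on chromosome 8, in which 1 interval may stand in several pairs. The median fold over pairs was 6.37 in siMBD2 and 5.65 in siMBD3, and siMBD2 had the higher fold in 35 of 56. In many of the pairs, however, siMBD3 had the higher pull-down pileup, and in others siMBD2 had. The lowest control background was higher in siMBD3, at 2.21 reads against 1.83 in siMBD2. Pileups and backgrounds of different lists depend on depth, which is unknown. What lay behind the fold difference was not tested. The median width was 776.5 bp in siMBD2 and 583.5 bp in siMBD3, and siMBD2 was the wider in 38 of 56. Their highest summits lay a median of 262 bp apart, and 12 of 56 lay within 100 bp. Only the highest summit of each interval was compared, so this does not show that the lists peaked at different places. At 34936774 to 34937920, for one, the highest summits lay 414 bp apart, yet both lists had a summit at 34937831. For all members the median width was 467.5 bp in siMBD2 and 408 bp in siMBD3.

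**Figure D5:**
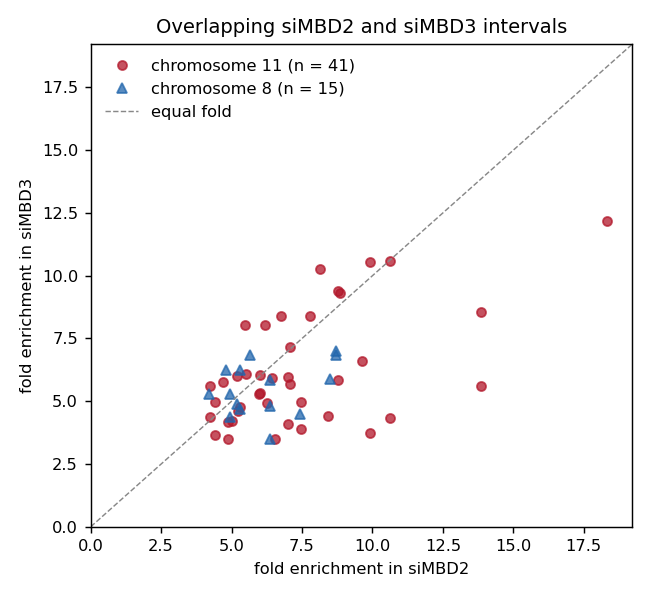
Fold enrichment of overlapping intervals in siMBD2 (horizontal axis) and siMBD3 (vertical axis), 1 point per pair, with 41 pairs on chromosome 11 and 15 on chromosome 8. Points below the dashed line of equal fold were higher in siMBD2, as 35 of 56 were, and the farthest point right is the shared site at 18.3-fold and 12.2-fold.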

How the data were processed

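Peaks were taken from 6 deposited lists, 1 per siRNA, whose names join replicates 1 to 3; they were taken as called on pooled libraries. Per the labels' protocols, fragments of 200 to 500 bp were selected, and 18 PCR cycles were run. Among the tools named in the submitters' processing notes are Bowtie2 2.3.4, MACS2 2.1.2 and bedtools 2.25.0, with no roles given, and the build named is hg19; how the caller was set and whether duplicates were removed is not given in the sources used here. In the deposited lists, the fold is a ratio of pull-down over control by the authors, read at each summit. Each deposited line also gives −log10 of a p-value and of a q-value. The score deposited with them is the q-value column times 10 without its decimals, except in 0 to 7 lines per list. The last deposited column, the summit offset, placed each summit.

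Lines were collapsed to distinct intervals, overlap meant at least 1 bp, and domains were runs of highest summits no more than 100 kb apart. Read pileup and background were solved from the fold and −log10 p under a Poisson model (pseudocount 1, tolerance 0.02 on −log10 p). Positions are hg19, counted from 1. Named intervals were the 5 of highest fold and the 3 widest per MBD list and window, the domains' end intervals, those overlapping siNC or siCHD5, and the 3 of highest fold of siNC and siCHD5. Other intervals, runs and groups were named after their values were seen. Members, windows and rules were chosen with earlier results of these data known. Python 3.11.15, pandas 2.3.3 and SciPy 1.17.1 were used, and the procedures were tested on simulated data. Depth is unknown: the lists give no read totals, and each list's lowest control background (1.83 reads in siMBD2, 2.21 in siMBD3, 2.80 in siCHD5, 2.29 in siCHD3, 2.72 in siCHD4, 2.50 in siNC) depends on read number and fragment length.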

Additional observations from a re-analysis of the deposited data

How the results depend on the processing

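Of 124 recomputed values, 98 stayed within 1.5 times the reported value or, for shares, within its 95% interval. With −log10 q of at least 5, chromosome 11 kept 39 siMBD2 and 28 siMBD3 intervals and chromosome 8 kept 11 and 7; median widths in siMBD2 were then 655 bp and 805 bp, and spacings 14.8 kb (siMBD2) and 31.3 kb (siMBD3) on chromosome 11 and 4.68 kb (siMBD2) on chromosome 8. With a fold of at least 4, siMBD3 spacings were 17.1 kb and 6.15 kb. Counting every summit gave 95 siMBD2 and 75 siMBD3 members on chromosome 11, with median widths of 691 bp and 646 bp. Measured from interval end to next start, the siMBD2 spacing on chromosome 8 was 0.602 kb. The siMBD2 domain on chromosome 11 measured 183 kb at 50 kb linking and 1558 kb at 200 kb linking. Requiring 50% of both intervals, 31.8% of siMBD2 members overlapped siMBD3. Overlap with siNC was 0% of siMBD2 and 0% of siMBD3 members under that rule, under the q minimum and under the fold minimum. Both minimums had to give 0%, because the only overlapping siNC interval had a fold of 2.5 and a −log10 q of 1.44. With summits no more than 500 bp apart the shares were 2.27% of siMBD2 and 1.59% of siMBD3 members. The median fold over that outside the windows was 2.94 times in siMBD3, and 1.18 times with a background under 10 reads, a limit chosen after seeing the data.

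No paired analysis was possible because the replicates were pooled into 1 list per siRNA. No replicate could be left out for the same reason. Few reads limit the chromosome 8 members, whose siMBD2 pileups ranged from 11 to 28 reads.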
